A study of Mus musculus with 9 samples.

Results

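Circular RNAs (circRNAs, here also called rings) made from genes of ubiquitin ligases, ubiquitin-conjugating enzymes and deubiquitinases were described in mouse liver. The hosts, that is the genes a ring is cut from, were taken by symbol alone, as single-gene hosts whose symbol begins with Usp, Ube, Ubr, Rnf, Trim or Birc and a digit, with Fbxl, Fbxo or Fbxw, with Herc or Cul and a digit, or with Nedd4, Wwp or the prefix of a further HECT family, together with Itch and Huwe1. Rnf169 and Fbxw7 were left out. The rule is on symbols, gives no reason for leaving out these 2 genes, and gave 108 of 3929 host genes or gene groups, with 409 of 11312 rings. A further 2 rings that matched the rule are shared with another gene and were not counted as members.

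Ubiquitin is a small protein that is activated by an E1 enzyme, passed to an E2 conjugating enzyme and joined to a target by an E3 ligase. HECT ligases take the ubiquitin onto themselves first, whereas RING and U-box ligases bring the loaded E2 and the target together, and cullin ligases are built on a scaffold that holds exchangeable F-box proteins as target receptors. Deubiquitinases, mainly of the Usp family, take ubiquitin off again. In the liver this system controls protein turnover, signalling, endosomal sorting and histone marks. A ring arises when a downstream exon end is spliced back to an upstream exon start, and reads across that back-splice junction count the ring and not the linear mRNA.

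The 9 libraries came from total liver RNA (1 µg each) of wild-type C57 BL6 mice aged 8 weeks and weighing 20 g on average, with 3 libraries per group. In the dmPGE2+APAP group, mice received 300 µg/kg dmPGE2, a stable analogue of prostaglandin E2, 1 h before 500 mg/kg acetaminophen (APAP), a drug that injures the liver at overdose. The APAP group received the same dose of APAP alone, and the control group received saline. Livers were taken 6 h after APAP, both drugs were given into the peritoneal cavity, and no vehicle in place of dmPGE2 is named for the APAP group. The labels do not number the animals or say whether any were pooled, so p-values measure only the spread between these samples.

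Back-splice reads per library numbered 99102 to 120531 in the dmPGE2+APAP group and 69268 to 109453 in the APAP group. In the control group they numbered 154449 and 129971 in control 1 and control 2, but 4362 in control 3. Control 3 held 739 rings, against 3181 to 5214 in the other libraries, and 1 read in it is worth 229.3 CPM, the unit used for levels here, in which a count is divided by the library's total of circRNA reads and scaled to the same total in every library. The counts of calls and the medians against control are therefore given also without it. Among hepatocyte marker genes, 13 of 16 were hosts of rings, with a summed 12500 to 16100 CPM in the dmPGE2+APAP group, 14800 to 19400 CPM in the APAP group and 12800 to 16500 CPM in the control group. Among endothelial markers, 5 of 7 were hosts, with a summed 1550 to 1840 CPM in the dmPGE2+APAP group, 780 to 2080 CPM in the APAP group and 1820 to 2000 CPM in the control group. Of 7 Kupffer cell markers 1 was a host (696 to 967, 245 to 975 and 0 to 816 CPM in the same groups), as was 1 of 5 cholangiocyte markers (200 to 464, 183 to 331 and 0 to 231 CPM). None of the 6 stellate cell and 7 neutrophil and lymphocyte markers had a ring. The part of these cell types in the results below was not tested. Not every marker gene makes rings, and in whole liver fewer cells of a type and less RNA per cell cannot be told apart.

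The junctions of 10 rings are shown because the comparisons below turn on them or because they carry most reads of abundant hosts. Each line gives the last 20 bases of the last ring exon in lower case and then, in capitals, the first 20 bases of the first ring exon, so the back-splice lies where the case changes. All are in the sense of the gene, from the GRCm38 genome with GENCODE M21 exons, and lie within coding sequence. The Fbxo31 rings, on the minus strand, span chr8:121559020-121560462 (novel_circ_0013451, exons 3 to 5 of 9), chr8:121559020-121566346 (novel_circ_0013452, exons 2 to 5) and chr8:121554105-121555359 (novel_circ_0013450, exons 7 to 8). The Fbxw4 ring spans chr19:45630865-45640521 (minus strand, exons 2 to 5 of 9), the Usp3 ring chr9:66540062-66566903 (minus strand, exons 2 to 8 of 15), the Ube2k ring chr5:65565989-65594548 (plus strand, exons 2 to 6 of 7), the Rnf214 ring chr9:45890804-45898491 (minus strand, exons 4 to 6 of 15) and the Herc2 ring chr7:56100079-56106532 (plus strand, exons 13 to 16 of 93). The Rnf114 rings, on the plus strand, span chr2:167507047-167511326 (novel_circ_0008190, exons 4 to 6 of 8) and chr2:167510876-167512624 (novel_circ_0008194, exons 5 to 7). A ring may leave out exons between its ends, which the junction alone does not show.
Fbxo31 novel_circ_0013451: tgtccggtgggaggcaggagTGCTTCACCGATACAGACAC
Fbxo31 novel_circ_0013452: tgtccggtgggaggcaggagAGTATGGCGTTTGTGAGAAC
Fbxo31 novel_circ_0013450: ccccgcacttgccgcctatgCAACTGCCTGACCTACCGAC
Fbxw4 mmu_circ_0000955: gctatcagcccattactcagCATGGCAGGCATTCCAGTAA
Usp3 mmu_circ_0001798: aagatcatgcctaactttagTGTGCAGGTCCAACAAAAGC
Ube2k mmu_circ_0001350: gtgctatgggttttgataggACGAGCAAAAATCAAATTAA
Rnf214 novel_circ_0014418: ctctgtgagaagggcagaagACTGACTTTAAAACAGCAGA
Rnf114 novel_circ_0008190: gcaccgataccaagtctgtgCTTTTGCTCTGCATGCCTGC
Rnf114 novel_circ_0008194: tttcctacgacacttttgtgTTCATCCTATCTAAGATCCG
Herc2 mmu_circ_0001571: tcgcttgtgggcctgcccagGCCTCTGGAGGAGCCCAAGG
The first and second lines share the end of exon 5 and differ after the junction, where one ring goes back to exon 3 and the other to exon 2.

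Together the 108 hosts gave 30645 back-splice reads. They held 3.35% ± 0.0811 of circRNA reads in the dmPGE2+APAP group, 3.44% ± 0.126 in the APAP group and 3.14% ± 0.355 in the control group (SD, n = 3), or 3.33% ± 0.172 in the control group without control 3 (SD, n = 2). The groups thus lay within about their own spread, and no test was made of a sum over chosen genes. RING, TRIM, UBR and BIR ligases supplied 33.5% of these reads from 38 hosts, cullins and F-box proteins 23.3% from 21, HECT ligases 20.2% from 15, deubiquitinases 12.4% from 25, E2 enzymes 6.79% from 5 and U-box ligases 0.979% from 2. The remaining 2.79% came from 2 hosts that were kept apart from these classes. These are Usp6nl, which encodes a GTPase-activating protein for Rab proteins, and Ube2cbp, also called Ube3d, which encodes a protein that binds an E2. The reads were concentrated, with 26.7% in the 3 hosts of highest mean CPM over the 9 libraries and 58.6% in the first 12. This order is not that of the reads, since control 3 weighs as much as the other libraries. Usp3, with 1807 reads, ranked above Rnf214, with 2022 reads but 0 in control 3.

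Fbxw4, a substrate receptor of cullin ligases, had 2645 ± 264 CPM in the dmPGE2+APAP group, 3133 ± 139 CPM in the APAP group and 2289 ± 398 CPM in control 1 and 2 (SD, n = 3, 3 and 2). Its 3 dmPGE2+APAP libraries (2448 to 2945 CPM) all lay below its 3 APAP libraries (3033 to 3292 CPM). Usp3, a deubiquitinase that acts on histone H2A, had 1750 ± 321 CPM in the dmPGE2+APAP group, 2088 ± 155 CPM in the APAP group and 2117 ± 274 CPM in control 1 and 2 (SD, n = 3, 3 and 2). Its groups overlapped.

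Ube2k was the leading E2 host, encoding an enzyme that builds the ubiquitin chains that mark proteins for the proteasome. It had 1699 ± 324 CPM in the dmPGE2+APAP group, 1797 ± 190 CPM in the APAP group and 1916 ± 164 CPM in control 1 and 2 (SD, n = 3, 3 and 2). The other E2 hosts were lower, with means over all 9 libraries of 219.9 CPM for Ube2e3 and 139.3 CPM for Ube2w. HECT ligases among the hosts included Herc2, a giant ligase of the DNA damage response (705.6 CPM), and Itch, a ligase of the Nedd4 family that limits T cell activation (504.7 CPM). Ube4b and Ube4a, U-box enzymes that lengthen ubiquitin chains, averaged 268.6 and 35.71 CPM. The leading RING hosts were Rnf214 (1985 CPM), Rnf114 (1570 CPM) and Trim33 (902.9 CPM), the last a ligase that restrains TGF-beta signalling through Smad4. Rnf217, a RING-between-RING ligase, averaged 806.1 CPM.

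Among cullin ligase parts, Fbxw4 was followed by Fbxo8 (1264 CPM), Fbxl17 (863.4 CPM), a receptor that removes wrongly paired BTB domain proteins, and Cul1 (744.5 CPM), the scaffold that F-box proteins dock to. Usp3 was followed among deubiquitinases by Usp48 (382.4 CPM) and Usp15 (274.9 CPM), which also acts in TGF-beta signalling. Usp32 was close behind at 273.2 CPM, with 291 reads over all libraries against 233 for Usp15. The 2 reads of Usp15 in control 3 were worth 458.5 CPM, and Usp32 had 0 there. Means over 9 libraries weigh control 3 like any other library, so close ranks depend on it. A back-splice junction is 1 site whatever the length of the ring, so these levels carry no length term, but a host with more rings has more junctions that can be counted. Rnf214, Rnf217 and Herc2 were listed at 0 in control 3, against 2219 ± 116, 967 ± 113 and 727 ± 16.0 CPM in control 1 and 2 (SD, n = 2). No count of 1 is in the table and the lowest above 0 is 2, so the zeros may include rings with a single read.

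**Figure D1:**
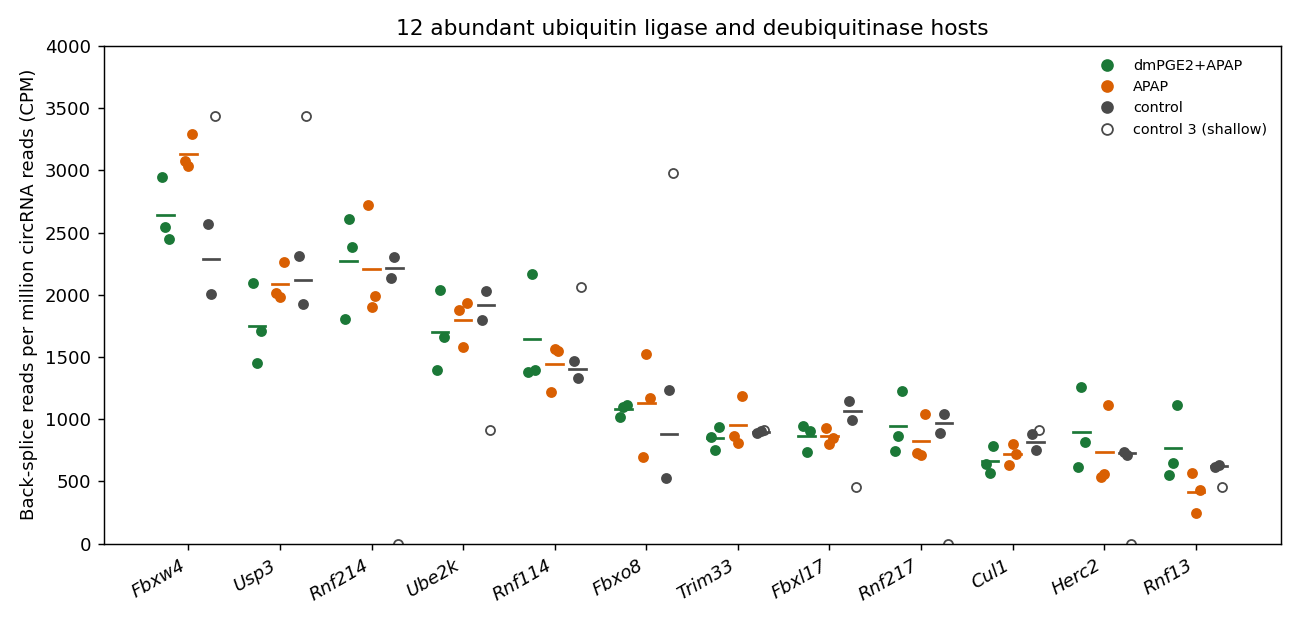
Back-splice reads scaled to the library's circRNA total (CPM, linear axis) of 12 abundant hosts, in order of their mean over 9 libraries; each point is 1 library, and bars are group means, drawn without control 3, which is shown as an open circle. The points of the 3 groups overlap for most hosts, and for Fbxw4 the dmPGE2+APAP points (2448 to 2945 CPM) lie below the APAP points (3033 to 3292 CPM).

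Of the 409 rings, 397 were exonic and 12 intronic, and for 380 of the exonic rings both ends were exon ends of 1 annotated transcript. Most were short runs of internal coding exons. The median ring spanned 4 exons and 500.5 bases of annotated exon, 320 of 380 (84.2%) lay within coding sequence and 47 (12.4%) held the start codon. Exon 2 was the first exon of 117 rings (30.8%), against 28.5% of 9546 rings of other hosts. The introns beside the rings had medians of 4701 bases upstream and 3058 bases downstream, against 6580 and 4932 bases for rings of other hosts. These shares and medians are descriptions, since rings of 1 host share introns and exons.

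Hosts had a median of 3 rings, against 2 over all hosts, and 30 hosts had 1 ring while 30 had at least 5. Of 379 rings from hosts with several rings, 276 (72.8%) shared an end with another ring of the same host, close to the 74.0% of 8889 rings of other hosts. Detection was uneven, with 160 rings (39.1%) read in 1 library only (38.8% of other rings), while the 50 rings read in all 8 libraries other than control 3 carried 71.8% of the reads. Birc6, which encodes a giant protein with both E2 and ligase activity that inhibits caspases, had the most rings. Its 22 rings ran from exon 2 to exon 72 of 73, none had more than 46 reads over all libraries, and 12 were read in 1 library only.

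Rnf13, a ligase of endosomal membranes, had 13 rings, of which the leading novel_circ_0009313 (exons 3 to 7) had 176 reads and the next, novel_circ_0009310, 119. Rnf214 had 9 rings, all starting at exon 3, 4 or 13, with 1445 reads in novel_circ_0014418 and 4 to 258 in each of the others.

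**Figure D2:**
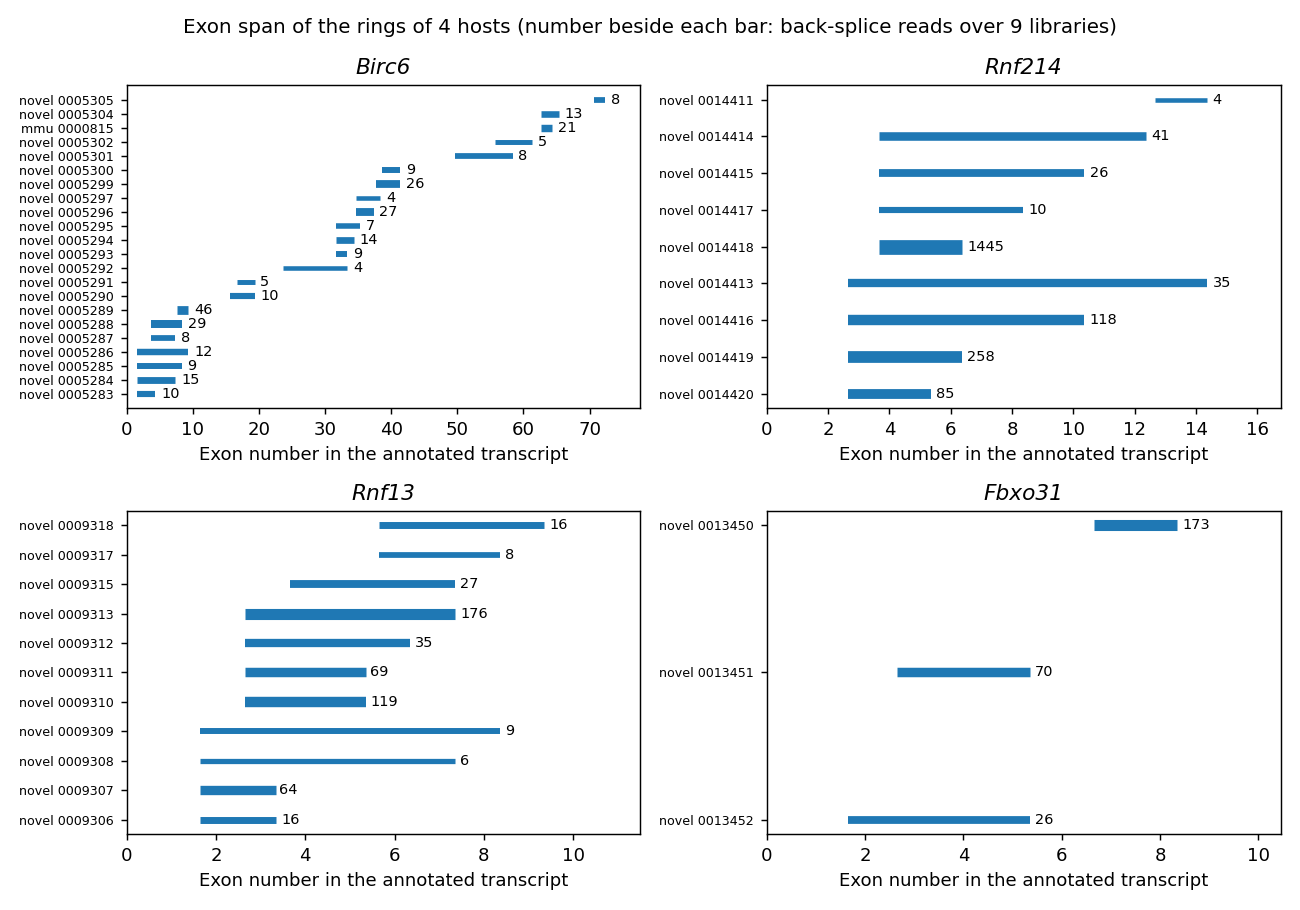
Rings of Birc6, Rnf214, Rnf13 and Fbxo31 drawn from their first to their last exon, numbered in the annotated transcript that each ring matches; bar thickness follows the log of the reads, and the number beside each bar is the reads over 9 libraries. Rings that could not be placed on exon ends (2 of Rnf13) are not drawn; the 22 Birc6 rings are spread along the gene with at most 46 reads each, 1 Rnf214 ring has 1445 reads, and 2 of the Fbxo31 rings end at the same exon.

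The share of the leading ring in its host's reads was high and narrow for some hosts and wide for others. Over the 8 libraries other than control 3, mmu_circ_0001350 held at least 88.1% of Ube2k reads and novel_circ_0013745 at least 89.4% of Fbxo8 reads. Usp3 ring mmu_circ_0001798 held 77.9% to 90.9% and Fbxw4 ring mmu_circ_0000955 held 64.9% to 82.0%. For Herc2, mmu_circ_0001570 (exons 11 to 12) held 46.0%, 35.2% and 44.7% in the dmPGE2+APAP libraries, 55.2%, 65.6% and 54.5% in the APAP libraries and 60.5% and 53.8% in control 1 and 2. The dmPGE2+APAP libraries were the 3 lowest, but most of the exact 95% binomial intervals, which cover counting error only, overlap and the difference was not tested. Itch and Ubr3, a ligase that binds targets through a UBR box, ranged widely, with the leading ring at 29.9% to 74.6% of Itch reads and 17.5% to 76.6% of Ubr3 reads. Rnf114 was split between novel_circ_0008190 (exons 4 to 6 of 8, 43.9% to 68.9% of its reads) and novel_circ_0008194 (exons 5 to 7), rings that overlap but share no end.

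**Figure D3:**
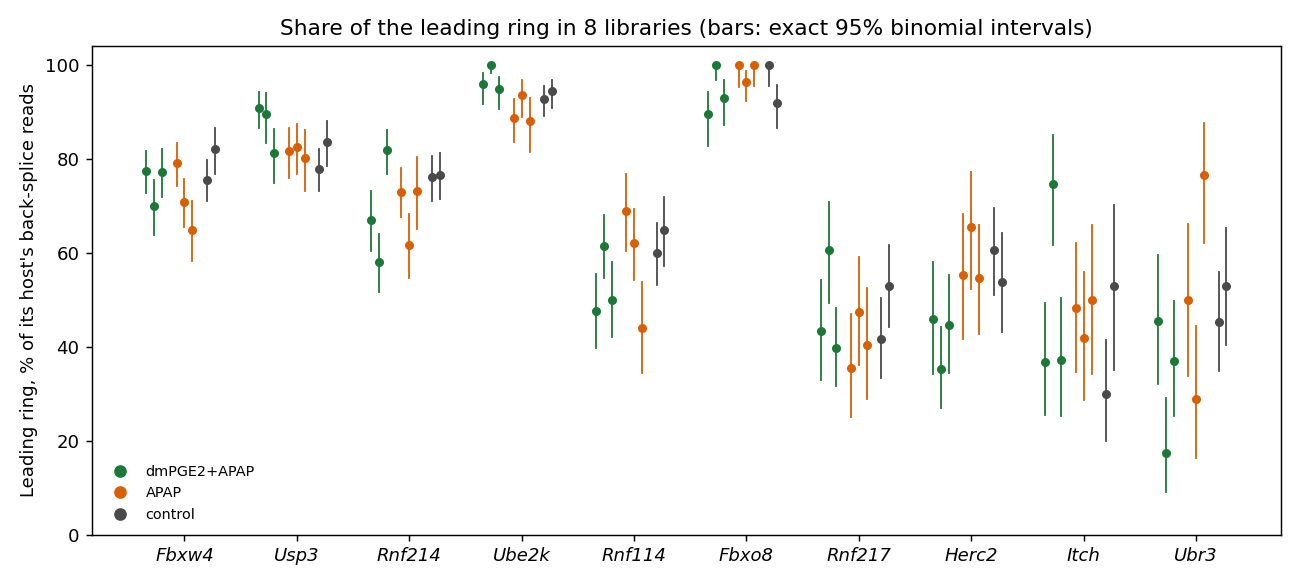
Percent of a host's back-splice reads taken by its leading ring in each of 8 libraries (control 3 left out), with exact 95% binomial intervals as vertical bars and groups by colour. Ube2k and Fbxo8 sit near 100%, while Ubr3 ranges from 17.5% to 76.6%, and the 3 dmPGE2+APAP points of Herc2 are its lowest.

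Which hosts differ 6 h into APAP injury, and which differ when dmPGE2 came first, was tested on host sums with at least 5 reads in at least 3 libraries, by edgeR's quasi-likelihood F test with Benjamini-Hochberg adjustment over all hosts. Of the 108 hosts, 79 entered. The 29 others had at most 40 reads over all libraries, and 12 hosts were read in 1 library only. Beside the members, hosts of the whole table give the background. None of the 79 passed an adjusted p under 0.05 in dmPGE2+APAP against APAP (0.127% of 2358 hosts passed), in APAP against control (0.339%), in dmPGE2+APAP against control (0.17%) or in the joint test of any difference among the 3 groups (0.382%). DESeq2 and limma-voom also called 0 of them in each. Without control 3 edgeR again called 0 (0.17%, 0.212%, 0.127% and 0.254% of all hosts in the same order).

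At an unadjusted p under 0.05 by edgeR, 4 of 79 hosts stood out in dmPGE2+APAP against APAP (2.71% of all hosts), 1 in APAP against control (5.22%), 3 in dmPGE2+APAP against control (4.24%) and 3 in the joint test (3.18%). Without control 3 these counts were 4 (3.35% of all hosts), 1 (5.22%), 2 (3.69%) and 3 (3.9%). The libraries of both groups lay apart for 8 hosts in each comparison, which is 10.1% of members, against 10% of all hosts in dmPGE2+APAP against APAP, 10.3% in APAP against control and 11.3% in dmPGE2+APAP against control. In dmPGE2+APAP against APAP, 4 hosts were higher (Nedd4l, Usp9x, Usp30 and Rnf103) and 4 lower (Fbxw4, Cul4a, Ube2e3 and Wwp2), beside 5.47% and 4.54% of all hosts. In APAP against control, 7 were higher (Itch, Ube4b, Ube2w, Usp34, Cul3, Wwp2 and Cul5) and 1 lower (Rnf2), beside 8.1% and 2.25%. In dmPGE2+APAP against control, 7 were higher (Itch, Fbxo31, Ube4b, Nedd4l, Herc4, Herc1 and Rnf103) and 1 lower (Rnf2), beside 8.52% and 2.8%. These shares are close to those of all hosts. A host listed at 0 in control 3 cannot lie below the whole control group, and only 20 member hosts were read there. The split into higher and lower against control is therefore no measure of direction, and it was not made without control 3. Without control 3, groups lay apart for 21 hosts in APAP against control, which is 26.6% of members against 20.1% of all hosts, and for 16 in dmPGE2+APAP against control, which is 20.3% of members against 20.8% of all hosts. Median log2 fold changes of the 79 hosts were -0.05 in dmPGE2+APAP against APAP (0.04 over all hosts), 0.11 in APAP against control (0.13 over all hosts) and 0.10 in dmPGE2+APAP against control (0.19 over all hosts). They were the same with hosts at 0 in 1 group set to the bound that a count of 3 reads allows. Without control 3 the medians against control were -0.02 for APAP (-0.03 over all hosts) and 0.00 for dmPGE2+APAP (0.03 over all hosts).

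The 12 most abundant hosts had the smallest errors. Their log2 fold changes lay between -0.22 (Usp3) and 0.34 (Herc2) in dmPGE2+APAP against APAP, with SEs of 0.23 to 0.41. In APAP against control they lay between -0.17 (Fbxl17) and 0.42 (Fbxw4), with SEs of 0.24 to 0.43, and without control 3 between -0.36 (Fbxl17) and 0.40 (Fbxw4). None of them passed the edgeR test. Fbxw4 in APAP against control was the closest, at adjusted p = 0.968, and 0.908 without control 3.

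**Figure D4:**
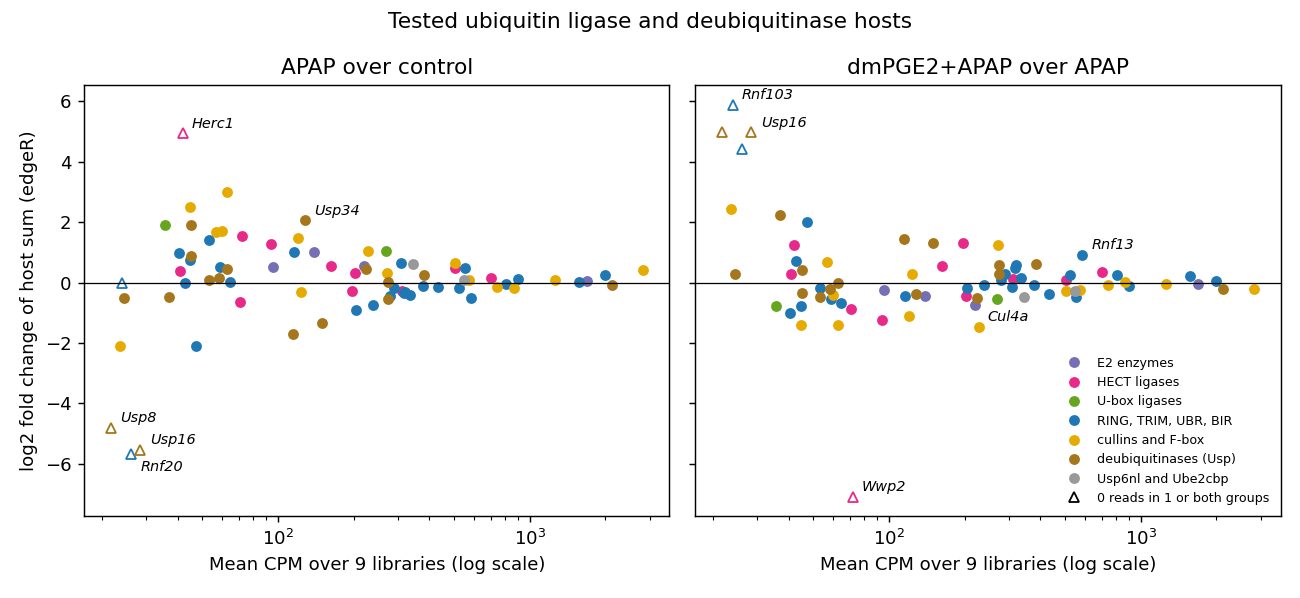
Log2 fold change of host sums by edgeR against mean CPM over 9 libraries (log axis) for tested hosts, coloured by class; left, APAP over control, right, dmPGE2+APAP over APAP. Open triangles mark hosts with 0 reads in all libraries of 1 of the groups or of both, whose fitted values depend on the prior count and are not sizes of change; the most abundant hosts, at the right, lie close to 0.

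In dmPGE2+APAP against APAP, the smallest p belonged to Wwp2, a Nedd4-family HECT ligase. None of the 3 dmPGE2+APAP libraries had a read of it, against 12, 16 and 18 reads in the APAP libraries and 5, 13 and 0 reads in the control libraries. The level was at least 17.8-fold lower in the dmPGE2+APAP group than in the APAP group, with 3 reads over the group as the floor, and every APAP library lay above every dmPGE2+APAP library. It did not pass (edgeR adjusted p = 0.409, and 0.493 without control 3). Against the control group it was at least 6.95-fold lower in the dmPGE2+APAP group, where the libraries overlap because control 3 is at 0 (edgeR adjusted p = 1.00). The reads came almost wholly from novel_circ_0013370 (chr8:107452979-107458001, plus strand, exons 2 to 4 of 24), which holds the start codon. At that ring, back-splice reads made up 12.4%, 29.6% and 22.2% of back-splice plus non-junction reads in the APAP libraries. They made up 6.49% and 17.8% in control 1 and 2. Non-junction reads are listed only where back-splice reads were found, so the dmPGE2+APAP group has no such value.

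Rnf103, a ligase of the endoplasmic reticulum membrane, had 10, 8 and 6 reads in the dmPGE2+APAP libraries and was listed at 0 in the 6 others (at least 6.87-fold higher than in the APAP group, edgeR adjusted p = 1.00). Its only ring could not be placed on the exon ends of an annotated transcript. Cul4a, the scaffold of a cullin ligase family that acts in DNA repair and replication, had 8, 21 and 17 reads in the dmPGE2+APAP libraries, 31, 55 and 28 in the APAP libraries and 45, 18 and 0 in the control libraries. That is 142 ± 73.0 CPM in the dmPGE2+APAP group and 397 ± 109 CPM in the APAP group (SD, n = 3), with no overlap between them. Its log2 fold change was -1.46 ± 0.73 (SE), and it did not pass (edgeR adjusted p = 1.00). Nearly all of these reads came from mmu_circ_0001659 (exons 15 to 17 of 20), with 3, 21 and 17 reads in the dmPGE2+APAP libraries and 22, 55 and 28 in the APAP libraries. Rnf13 had 772 ± 300 CPM in the dmPGE2+APAP group and 417 ± 163 CPM in the APAP group (SD, n = 3), with overlapping libraries and a log2 fold change of 0.92 ± 0.45 (SE, edgeR adjusted p = 1.00). Usp16, which removes ubiquitin from histone H2A, had 4, 0 and 9 reads in the dmPGE2+APAP libraries, 0 in the APAP libraries and 9, 11 and 0 in the control libraries.

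In APAP against control, the 5 hosts with the smallest p were Rnf20, Usp16, Usp34, Herc1 and Usp8. Usp34 had 115 reads over all libraries and the others had 24 (Usp8) to 42 (Herc1). None of them passed (edgeR adjusted p from 0.893 to 0.910, and from 0.908 to 0.914 without control 3). Rnf20, a ligase that puts ubiquitin on histone H2B, was listed at 0 in the APAP libraries, against 13, 10 and 0 reads in the control libraries. It had 9, 0 and 0 reads in the dmPGE2+APAP libraries, all of 1 ring, novel_circ_0010277 (exons 15 to 16 of 20). Usp8, a deubiquitinase of endosomes, was likewise listed at 0 in the APAP libraries, against 9, 3 and 0 reads in the control libraries. Usp34, a deubiquitinase linked to Wnt signalling, had 15, 15 and 23 reads in the APAP libraries and 0, 13 and 0 in the control libraries. Herc1, a giant relative of Herc2, had 11, 8 and 11 reads in the dmPGE2+APAP libraries, 0, 12 and 0 in the APAP libraries and 0 in all control libraries, so its level in the dmPGE2+APAP group was at least 8.64-fold higher than in the control group (edgeR adjusted p = 1.00, also without control 3).

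Fbxo31, an F-box protein whose ligase directs cyclin D1 to destruction, had 480 ± 294 CPM in the dmPGE2+APAP group, 216 ± 152 CPM in the APAP group and 121 ± 106 CPM in the control group (SD, n = 3), or 181 ± 27.7 CPM in control 1 and 2. Every dmPGE2+APAP library lay above every control library, and its log2 fold change between them was 1.55 ± 0.70 (SE, edgeR adjusted p = 1.00), or 1.37 without control 3. Usp48 had 492 ± 201 CPM in the dmPGE2+APAP group, 328 ± 40.3 CPM in the APAP group and 327 ± 115 CPM in the control group (SD, n = 3). Control 3 was at 458.5 CPM from 2 reads, and control 1 and 2 averaged 261.5 ± 21.9 CPM (SD, n = 2), both below every dmPGE2+APAP and every APAP library. The log2 fold change of Usp48 between the dmPGE2+APAP and control groups was 0.88 with and without control 3 (edgeR adjusted p = 1.00 in both). By class, the tested hosts were split in both directions in dmPGE2+APAP against APAP. Log2 fold changes were above 0 for 14 of 27 RING, TRIM, UBR and BIR hosts, 7 of 12 HECT hosts, 10 of 17 deubiquitinases and 5 of 15 cullin and F-box hosts. They were above 0 for none of 4 E2 hosts and none of 2 U-box hosts, of which none passed edgeR and none had an unadjusted p under 0.05. In APAP against control they were above 0 for 4 of 4 E2, 2 of 2 U-box and 11 of 15 cullin and F-box hosts. There they were also above 0 for 9 of 12 HECT hosts, 9 of 17 deubiquitinases and 11 of 27 RING, TRIM, UBR and BIR hosts. Both comparisons use the same APAP libraries and are not independent. The share of all hosts above 0 was not counted.

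Single rings were tested in the same way, and 152 of the 409 entered, leaving 257 with too few reads. None passed the edgeR test in dmPGE2+APAP against APAP (0.0693% of 4331 rings passed), in APAP against control (0.139%) or in dmPGE2+APAP against control (0.115%), with 10, 7 and 10 at an unadjusted p under 0.05 (3.81%, 5.17% and 4.34% of all rings). Without control 3 none passed either (0.0693%, 0.231% and 0.0924% of all rings), with 8, 5 and 4 at an unadjusted p under 0.05 (3.21%, 4.64% and 3.63%). DESeq2 and limma-voom also called 0 in these 3 comparisons. Libraries of the groups lay apart for 10, 13 and 18 rings, against 9.17%, 8.75% and 9.84% of all rings. Without control 3 they lay apart for 29 rings in APAP against control (19.2% of all rings) and 29 in dmPGE2+APAP against control (19.9%). In the joint test, 1 ring passed, novel_circ_0013451 of Fbxo31 (0.208% of all rings), and 4 had an unadjusted p under 0.05 (2.66%). Without control 3 none passed the joint test (0.208% of all rings), with 4 at an unadjusted p under 0.05 (2.98%).

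This Fbxo31 ring, first in the lines of junctions above, had 5, 12 and 53 reads in the dmPGE2+APAP libraries and was listed at 0 in the 3 APAP and the 3 control libraries. Its level in the dmPGE2+APAP group was at least 20.1-fold higher than in the APAP group and at least 20.1-fold higher than in the control group, with 3 reads over the group as the floor. The 3 dmPGE2+APAP libraries were unequal, and 53 of its 70 reads came from dmPGE2+APAP 3. The joint edgeR test gave adjusted p = 0.0319, while neither pairwise test passed (adjusted p = 0.713 against APAP and 0.488 against control, or 0.754 and 0.709 without control 3). The call rested on single libraries, with adjusted p = 1.00 without dmPGE2+APAP 3, 0.0871 without dmPGE2+APAP 2, 0.0530 without APAP 1, 0.0525 without APAP 2 and 0.0905 without control 3. It passed in DESeq2 (adjusted p = 0.0162) and did not in limma-voom (0.343).

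The other Fbxo31 rings were not limited to the dmPGE2+APAP libraries. The most abundant, novel_circ_0013450 from exons 7 to 8, had 27, 19 and 31 reads in the dmPGE2+APAP libraries, 12, 16 and 16 in the APAP libraries and 31, 21 and 0 in the control libraries. In dmPGE2+APAP against APAP its log2 fold change was 0.59 ± 0.76 (SE, edgeR adjusted p = 1.00). The ring that shares the exon 5 end, novel_circ_0013452, had 5, 0 and 10 reads in the dmPGE2+APAP libraries, 0, 0 and 11 in the APAP libraries and 0 in all control libraries. The difference between these rings was not tested.

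None of the other rings with a small p passed. Herc2 ring mmu_circ_0001571 had 13, 12 and 5 reads in the dmPGE2+APAP libraries and 0 in the 6 others (at least 8.59-fold higher than in the APAP group, edgeR adjusted p = 1.00). The leading Herc2 ring, mmu_circ_0001570, had 34, 44 and 42 reads in the dmPGE2+APAP libraries, 32, 40 and 42 in the APAP libraries and 69, 50 and 0 in the control libraries, so it was read in every library but control 3. Rnf216 ring novel_circ_0011032 was listed at 0 in the dmPGE2+APAP libraries, against 9, 0 and 7 reads in the APAP libraries and 13, 8 and 0 in the control libraries. Rnf217 ring novel_circ_0000250 had 20, 0 and 5 reads in the dmPGE2+APAP libraries, 0 in the APAP libraries and 32, 0 and 0 in the control libraries, where a single control library carried all reads.

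Among the rings with the smallest p in APAP against control, those of Rnf114, Birc6 and Fbxo21, a receptor of cullin ligases, were listed at 0 in all control libraries. Rnf114 ring novel_circ_0008191 (exons 4 to 7) had 8, 11 and 3 reads in the dmPGE2+APAP libraries and 5, 0 and 16 in the APAP libraries. Birc6 ring novel_circ_0005289 (exons 8 to 9) had 0, 8 and 17 reads in the dmPGE2+APAP libraries and 15, 6 and 0 in the APAP libraries. Fbxo21 ring novel_circ_0010751 (exons 7 to 9) had 9, 5 and 9 reads in the dmPGE2+APAP libraries and 18, 0 and 3 in the APAP libraries. Rnf214 ring novel_circ_0014420 (exons 3 to 5) had 11, 10 and 14 reads in the dmPGE2+APAP libraries, 8, 21 and 16 in the APAP libraries and 0, 5 and 0 in the control libraries. None of these 4 passed the edgeR test in APAP against control (adjusted p = 0.799 for each, and 0.841 without control 3).

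**Figure D5:**
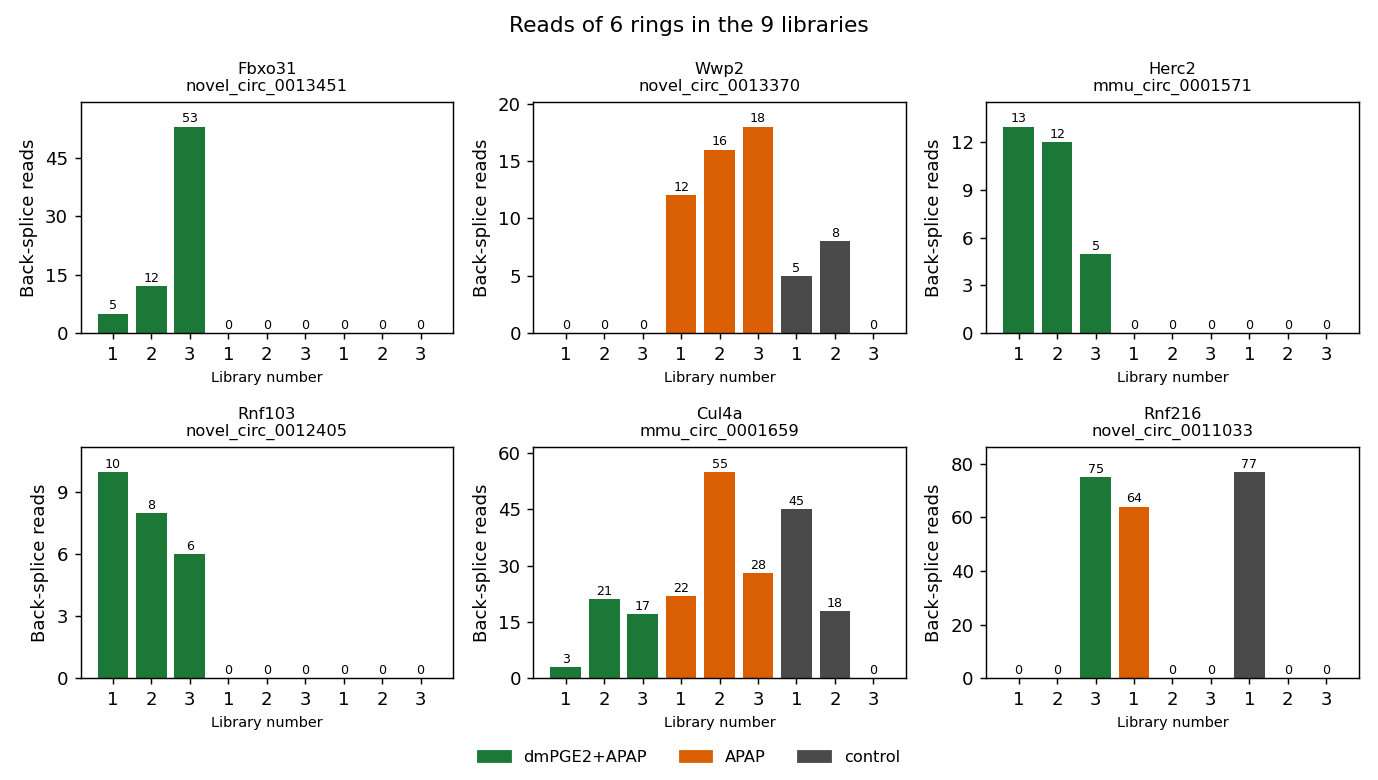
Back-splice reads (linear axis, each panel with its own scale) of 6 rings in each of the 9 libraries, numbered 1 to 3 within a group and coloured by group, with the count printed above each bar. Rings of Fbxo31, Herc2 and Rnf103 have reads in the dmPGE2+APAP libraries only, the Wwp2 ring in APAP and control libraries only, and the Rnf216 ring in 1 library of each group.

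The percent of the circular form is taken here as back-splice reads over back-splice plus non-junction reads listed for a ring. It could be computed for 364 of the 409 rings. Lists were left out partly by the form of their counts, so which rings remain is not independent of the percent. Rings of 1 host can share exons, so a non-junction read is not shown to come from the linear mRNA. Of the 50 rings read in all 8 libraries other than control 3, 41 had a usable list of reads. Those without one include the leading ring of Rnf214 and both Rnf114 rings shown above. Over the 41 rings the percent was 40.8%, 42.1% and 45.2% in the dmPGE2+APAP libraries and 43.9%, 44.4% and 37.1% in the APAP libraries. It was 49.8% and 48.1% in control 1 and 2. Both of these control libraries lay above the 6 others. The same held for 1076 usable rings of other hosts, of 1437 read in those 8 libraries. They had 45.0%, 43.4% and 45.5% in the dmPGE2+APAP libraries and 43.2%, 46.6% and 37.0% in the APAP libraries. Control 1 and 2 had 50.3% and 49.0%. Over all usable rings of other hosts, read in any library, it did not hold: dmPGE2+APAP 3 (21.9%) lay above control 1 (20.3%) and control 2 (16.9%). Control 3 stood apart, with 1.77% over the 13 of the 41 rings that were read there. It had 64 back-splice and 3559 non-junction reads at them, while control 1 had 2427 and 2445 over the 41 rings. Single rings differed far more than groups. The median over the 8 libraries was 87.4% for the Trim33 ring mmu_circ_0001153 and 84.8% for the leading Usp3 ring. It was 81.2% for that of Fbxw4 and 78.5% for that of Ube2k. Most reads counted at these rings were back-splice reads. The median was 15.0% for the leading Rnf13 ring and 9.28% for the Rnf13 ring novel_circ_0009310, where most reads were non-junction reads. No test was made of these sums. Depth here is the library's total of back-splice reads, which also enter the percent, so the percent and depth are not independent. Depth was highest in control 1 and 2, at 154449 and 129971 reads. The next, dmPGE2+APAP 1 with 120531 reads, had 40.8% over the 41 rings. The part of depth was not tested.

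Other genes of the ubiquitin system outside the symbol rule, such as activating enzymes, Cbl and March ligases, cullin ligase adaptors, further deubiquitinases, proteasome subunits and SUMO enzymes, were described from a list of 151. Of these, 69 were hosts in the table and 45 were tested. In APAP against control, 1 of 45 rose and none fell by edgeR (0.339% of all hosts passed), and 5 of 45, or 11.1%, had an unadjusted p under 0.05 (5.22% of all hosts). It was Senp1, a protease that removes the ubiquitin-like protein SUMO, with 33, 0 and 29 reads in the APAP libraries and 0 in all control libraries (edgeR adjusted p = 0.0429, and 0.123 without control 3). The groups overlap, since APAP 2 is at 0 as well, and its adjusted p was 0.766 by limma-voom and 0.0430 by DESeq2. None passed in dmPGE2+APAP against APAP or against control, with 2 (4.44%) and 3 (6.67%) at an unadjusted p under 0.05, against 2.71% and 4.24% of all hosts.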

How the data were processed

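Back-splice reads were measured in 9 mouse liver libraries. Per the labels' protocols, ribosomal RNA was depleted and the second cDNA strand was marked with dUTP, and an RNase step against linear RNA is not mentioned. The submitters' processing notes name HISAT2 and GRCm38 (mm10), and the circRNA caller is not given in the sources used here. Per the file headers, each ring has a whole-number count of back-splice reads and a TPM value for each library in the table the authors deposited. The authors' TPM is that count scaled by 1 constant per library, and only counts were analysed. Junction and non-junction reads are listed per ring in the authors' table; lists that a spreadsheet had turned into single numbers were left out, and 29321 listed junction counts were compared with the count columns, of which 0 differed.

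Columns were matched to samples by name, except that the 3 columns coded BC were assigned to the control group by elimination and keep their own numbers. Starts were raised by 1 to count from 1. Exons are from GENCODE M21.

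Host counts are sums over rings. A minimum of 5 reads in 3 or more of the 9 libraries left 2358 hosts and 4331 rings, which entered edgeR 4.0.16 in R 4.3.3 (TMM on library totals, 1 mean per group, quasi-likelihood F test, Benjamini-Hochberg, threshold 0.05). The test was run on simulated host counts with large known changes. Those counts varied less between libraries than rings read in a single library of a group, so the run does not cover such rings. DESeq2 1.42.0, limma-voom (limma 3.58.1), other scalings, filters, a replicate block and leaving out each library were alternatives. CPM uses the library's circRNA total. Depth was 4362 to 154449 reads, and intervals and floors (3 reads) cover counting error only. Members, lists and named genes were chosen with earlier results of these data known. Named were features past a threshold, the 6 hosts and 6 rings of smallest p per comparison, the 12 most abundant hosts, the 3 most abundant per class, the 8 most abundant rings and the 3 hosts with most rings. One host that the rule selects is counted in the totals but is not reported here. Other features named (Rnf216 novel_circ_0011033, Birc2 and Itch rings and others) were chosen after their values were seen.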

Additional observations from a re-analysis of the deposited data

How the results depend on the processing

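None of the 79 hosts passed under any alternative run (other scalings, DESeq2, limma-voom, filters of 10 reads or none, the replicate block, and each library left out), in any of the 4 tests. For rings, the count in the joint test was 0 in place of 1 under limma-voom, with at least 10 reads in 3 libraries, where the Fbxo31 ring is not tested, and in the fit with a replicate block, and it ranged from 0 to 1 with each library left out. In dmPGE2+APAP against control it ranged from 0 to 1, the 1 being Rnf216 novel_circ_0011033 without dmPGE2+APAP 3; the cause was not tested. With the replicate block the Fbxo31 ring novel_circ_0013451 had adjusted p = 0.360. The numbers are not shown to pair the libraries: same-numbered dmPGE2+APAP and APAP libraries correlated at -0.00107, -0.000168 and 0.0288 in their deviations from the group means across rings, dmPGE2+APAP 1 correlated best with APAP 2, and the control columns carry numbers of another code. Of single features, 558 values kept direction and side of the threshold and 7, all of that ring, lost the call. The percent of the circular form over all usable rings was 25.2% ± 1.16 in the dmPGE2+APAP group and 25.5% ± 2.52 in the APAP group (SD, n = 3). It was 30.7% and 30.1% in control 1 and 2. Over usable rings read in 8 libraries it was 42.7% in the dmPGE2+APAP group and 41.8% in the APAP group. That set by construction leaves out the rings read in fewer. Depth limits the rest: in control 3 a host below 687.8 CPM is under the floor of 3 reads.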

Other observations

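Chosen after their values were seen, 55 rings of these hosts had at least 30 reads in 1 of the 8 libraries other than control 3, and 14 of them (25.5%) were listed at 0 in another, against 226 of 1297 rings of other hosts (17.4%). Rnf216 ring novel_circ_0011033 had 0, 0 and 75 reads in the dmPGE2+APAP libraries, 64, 0 and 0 in the APAP libraries and 77, 0 and 0 in the control libraries, so 1 library of each group carried all its reads. It shares one end with novel_circ_0011032, which was read in control 1, control 2, APAP 1 and APAP 3. Birc2, an inhibitor of cell death with a RING domain, had a single ring, novel_circ_0014800, with 66, 57 and 0 reads in the dmPGE2+APAP libraries, 57, 67 and 24 in the APAP libraries and 117, 68 and 0 in the control libraries.

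The deubiquitinases Usp9x and Usp30, of which Usp30 sits on mitochondria, had fewer reads in the APAP libraries than in the dmPGE2+APAP libraries, without overlap. They too were chosen after their values were seen. Usp9x had 28, 21 and 19 reads in the dmPGE2+APAP libraries, 7, 15 and 3 in the APAP libraries and 41, 30 and 0 in the control libraries. Usp30 had 21, 14 and 15 reads in the dmPGE2+APAP libraries, 10, 7 and 0 in the APAP libraries and 35, 27 and 0 in the control libraries. Neither passed by edgeR in any comparison, and their log2 fold changes in dmPGE2+APAP against APAP were 1.30 and 1.45.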
